A study of Mus musculus with 12 samples.

Results

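The response of prostate tumour cells to low oxygen was described on the arrays that carry replicate number 1, in which each hypoxia array has a normoxia array of the same transfection. These are 8 of the 12 arrays of the series, 4 from hypoxia and 4 from normoxia, and they were taken by the replicate number in their titles. The other 4 arrays are hypoxia arrays of replicate 2. They were left out of the comparison because every normoxia array is of replicate 1, so that a difference between replicates would enter the difference between oxygen levels. TRAMP-C cells are a line from a prostate tumour of a male TRAMP mouse on the C57BL6 background, in which a viral oncogene is driven in the prostate epithelium, and the labels call the cells wild-type. All cells had been nucleofected with plasmid: the empty vector pcDNA (control), FoxA2, HIF-1a, or FoxA2 together with HIF-1a. At 48 h after transfection they spent 12 h in 1% oxygen (hypoxia) or in normoxia, and total RNA was hybridised to the Mouse-6 Expression BeadChip.

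Cells sense oxygen through prolyl hydroxylases of the EGLN family, which need oxygen to mark the alpha subunits of hypoxia-inducible factor (HIF) for destruction through the VHL ubiquitin ligase. When oxygen falls, HIF-alpha persists, pairs with ARNT and binds a short DNA motif in front of genes for glucose use, red cell and vessel supply, matrix hydroxylation and its own negative feedback. Low oxygen also slows energy-costly work such as ribosome production, and in prostate tumours HIF and the forkhead factor FOXA2 have been linked to neuroendocrine growth, the subject of the study, which followed Hes6, Sox9 and Kdm3a (Jmjd1a).

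Values are log2 normalized intensities, and a difference is hypoxia minus normoxia on that log2 scale. Where 4 values are given for an oxygen level they stand in this order: the control array first, then FOXA2, next HIF-1a, and last the array with both plasmids (FOXA2+HIF-1a). A difference carries its standard error from limma, a linear model over 8 arrays in which each transfection is a block, and a gene is called higher or lower at a Benjamini-Hochberg adjusted p below 0.05 over 9609 genes. Those are the annotated genes, of 13064 on the platform table, with a probe at detection p below 0.01 on 2 or more of the 12 arrays. Each condition within a transfection is 1 array, and nothing in the labels says that the transfections were separate cultures of cells, so a p-value measures spread among single arrays alone, part or all of which may be technical. In RNA from whole cultures, fewer cells that express a gene and less RNA per cell cannot be told apart.

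Mean raw intensity was 298 to 380 on 7 arrays and 559 on the FOXA2+HIF-1a hypoxia array, and 15607 to 17182 of 45281 probes were detected per array. The control, FOXA2 and HIF-1a pairs lay on slide 1 and the FOXA2+HIF-1a pair on slide 2. Across the 9609 genes the 4 normoxia arrays correlated with each other at 0.996 to 0.997 and the 4 hypoxia arrays at 0.975 to 0.995. The HIF-1a and the FOXA2+HIF-1a hypoxia arrays each stood apart from the other hypoxia arrays in a set of genes, given after the main results. Counts without one or both of these pairs are given for some lists, and the other list counts are over the 4 pairs only.

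The transfected genes were at high level on the arrays labelled for them. Foxa2 was at 6.46, 9.27, 6.45 and 10.29 in hypoxia and at 7.07, 9.96, 6.85 and 10.43 in normoxia, so both arrays with the FOXA2 plasmid stood above both without it at either oxygen level. Foxa2 was called lower in hypoxia by −0.46 ± 0.12 (limma adjusted p = 0.0234), a call that ended without the control pair (−0.41, adjusted p = 0.103) and without the FOXA2 pair (−0.38, adjusted p = 0.107), and when all 12 arrays were fitted with a replicate block (−0.46, adjusted p = 0.25). Hif1a was at 9.63, 9.42, 12.34 and 13.18 in hypoxia and at 9.55, 9.06, 12.83 and 12.82 in normoxia. Its difference between oxygen levels was 0.08 ± 0.15 (adjusted p = 0.733). The probes cannot tell plasmid RNA from the cell's own.

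Epithelial, neuroendocrine, immune and endothelial markers were looked at for the identity of the cells. Only 9 of 24 epithelial and keratin genes were detected, and Krt8, a keratin of luminal epithelium, was near background at 5.19 to 5.93 in hypoxia and 5.61 to 5.93 in normoxia. Of these 9, 2 were called higher, Krt19 (given below) among them, and 2 lower. Their median difference was −0.19, and only 3 of the 9 differences were positive. Cdh1 was called lower by −0.40, a call that ended without the control, the FOXA2 or the FOXA2+HIF-1a pair. Of 23 neuroendocrine and neuronal markers 5 were detected. Of these 5, Eno2, neuron-specific enolase, rose by 0.63 ± 0.09 (adjusted p = 0.00246), and Gap43, a protein of growing axons, fell by 0.83 on the log2 scale (adjusted p = 0.0134), a call lost over all 12 arrays without the replicate block (−0.47, adjusted p = 0.205). Ncam1, a neural adhesion molecule, was called higher by 0.37, a call that ended without the control (0.34) or FOXA2 pair (0.37), and Scg5 (0.23) and Uchl1 (0.24) were not called. Of 18 immune markers only Cd14 and Csf1r were detected, and of 12 endothelial markers only Flt1 and Egfl7. Cd14 was called higher by 0.36, a call that ended without any 1 pair (0.27 without control, 0.42 without FOXA2, 0.40 without HIF-1a and 0.34 without FOXA2+HIF-1a). Csf1r, the macrophage growth factor receptor, was not above background on any normoxia array and on 2 of 4 hypoxia arrays, with values of 5.05 to 5.47 in hypoxia and 4.45 to 4.55 in normoxia. The immune markers' part in the results below was not tested.

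Of 9609 genes, 2663 (27.7%) were called, 1238 (12.9%) higher and 1425 (14.8%) lower. Falls were more numerous over the 4 pairs, though not without the FOXA2+HIF-1a pair (1095 higher and 1017 lower), and rises were larger. Among called genes, 239 (2.49%) were more than 2-fold higher and 58 (0.604%) more than 2-fold lower, and 55 (0.572%) were more than 4-fold higher while no gene was called more than 4-fold lower. The 4 pairs moved the same way in 2641 of the 2663 called genes. Over all genes, all 4 pairs were higher in 21% and lower in 25.6%. A call is made from these same 4 differences, so their shared direction is not separate support for it. All 4 hypoxia arrays lay above all 4 normoxia arrays in 1428 genes (14.9%) and below them in 1748 (18.2%). The calls were spread over the range of intensity, from 13.3% higher and 13.4% lower in the dimmest of 4 equal classes of genes to 10.7% higher and 12.4% lower in the brightest. The count depended on which pairs were fitted, with 773 genes higher and 773 lower without the control pair and 822 higher and 856 lower without the FOXA2 pair. The control and FOXA2 pairs alone gave 1481 higher and 1631 lower, more than the 4 pairs together.

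**Figure D1:**
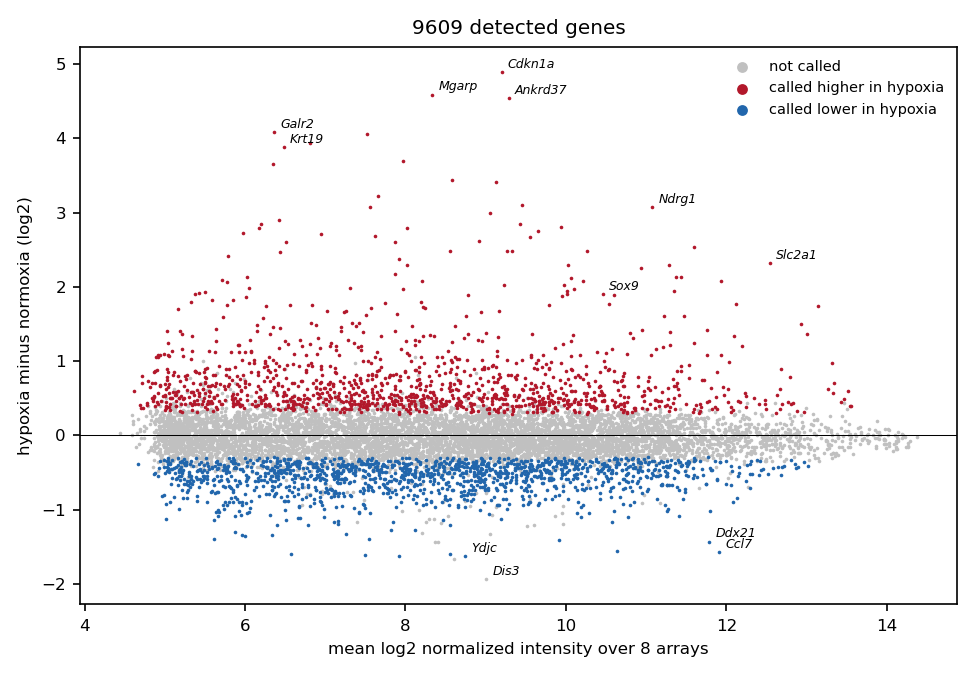
Difference between hypoxia and normoxia (log2) against the mean log2 normalized intensity over 8 arrays for 9609 genes, with called genes in red (higher) and blue (lower) and the others in grey. Rises reach 4.89 for Cdkn1a, and the largest called fall is near −1.6 on the same scale (Ydjc, Ccl7), while Dis3 at −1.93 was not called.

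The gene with the largest rise was Cdkn1a, which encodes the cyclin-dependent kinase inhibitor p21. It was at 11.63, 11.34, 11.86 and 11.74 in hypoxia and at 6.78, 6.44, 6.91 and 6.90 in normoxia, a difference of 4.89 ± 0.09 (29.6-fold, limma adjusted p = 1.84e-07), with 3.14 to 4.32 on its other detected probes. The 4 pairs gave nearly the same rise, and no hypoxia array came near a normoxia array. Mgarp, a mitochondrial protein that takes part in organelle transport, was at 10.74, 10.69, 10.51 and 10.56 in hypoxia and at 5.70, 6.05, 6.07 and 6.33 in normoxia, 24-fold higher (4.59 ± 0.14). Ankrd37, an ankyrin-repeat protein known as a HIF target, was at 11.83, 11.67, 11.11 and 11.62 in hypoxia and at 6.85, 6.99, 7.16 and 7.06 in normoxia, 23.3-fold higher (4.54 ± 0.16). The HIF-1a hypoxia array was the lowest of the hypoxia arrays for both Mgarp and Ankrd37. Adm, the precursor of the vasodilator peptide adrenomedullin, was at 9.98, 9.48, 9.08 and 9.67 in hypoxia and at 5.40, 5.27, 5.55 and 5.76 in normoxia, 16.6-fold higher (4.06 ± 0.16). Stc1, the secreted hormone stanniocalcin, rose by 3.41 ± 0.13.

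Several genes below background in normoxia became well measured in hypoxia. A total of 64 genes (0.666%) were detected on all 4 hypoxia arrays and on no normoxia array, and 33 (0.343%) the other way round. For these a fold is a lower bound, taken against the lowest intensity detected on each array. The 64 genes passed the detection filter through hypoxia arrays alone. Wherever a fold is given as a bound, the adjusted p rests in part on values at background. The spread of such values is not that of a measured level, so the adjusted p adds no support to the bound. Krt19, a keratin of simple and progenitor epithelia, was at 8.33, 8.38, 8.67 and 8.31 in hypoxia and at 4.80, 4.54, 4.37 and 4.46 in normoxia, at least 9.1-fold higher (adjusted p = 2.25e-06). Galr2, a receptor for the neuropeptide galanin, was at 8.66, 8.44, 8.24 and 8.27 in hypoxia and at 4.25, 4.39, 4.34 and 4.29 in normoxia, at least 8.98-fold higher (adjusted p = 1.14e-06). In both genes the 4 hypoxia arrays lay within a narrow band and all normoxia arrays were at background. Espn, an actin-bundling protein, was at least 7.68-fold higher, and Rgcc, a regulator of the cell cycle, at least 6.22-fold. Pgf, the placental growth factor, was at least 2.12-fold higher.

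**Figure D2:**
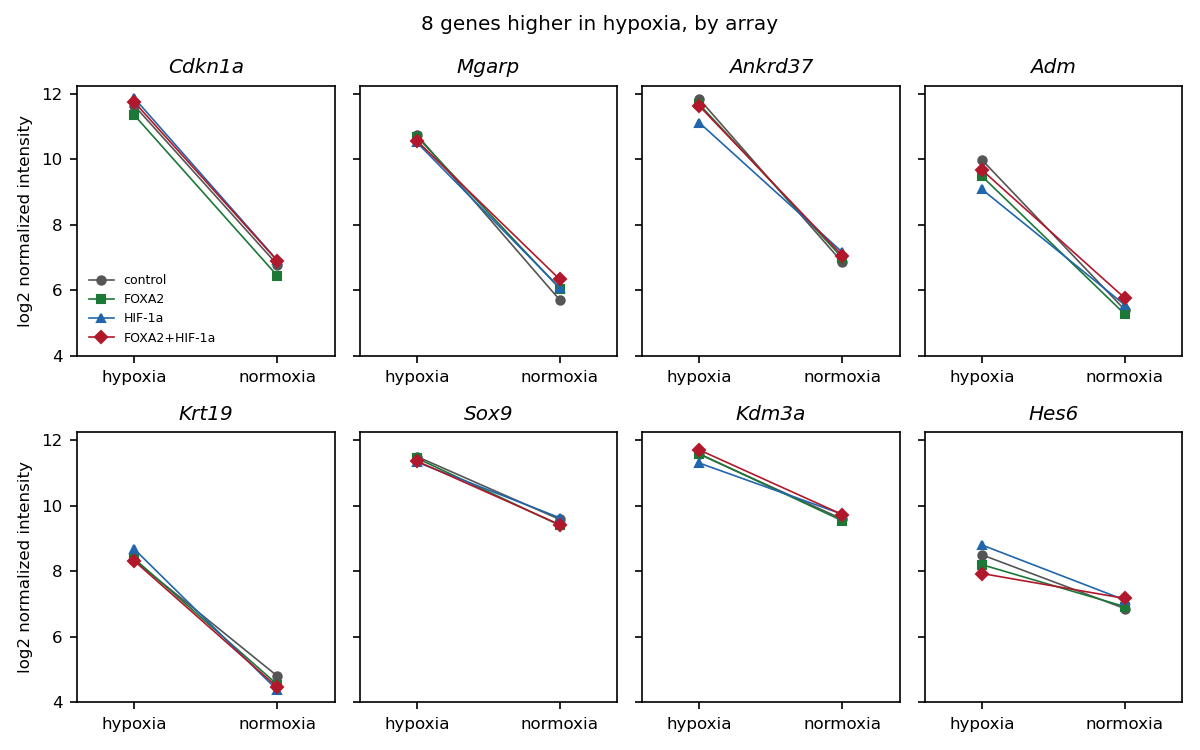
Log2 normalized intensity of 8 genes on the 4 hypoxia arrays (left in each panel) and the 4 normoxia arrays (right), with a line joining the arrays of a transfection. The lines of the 4 transfections run close together for Cdkn1a, Mgarp, Ankrd37, Adm, Krt19, Sox9 and Kdm3a, and the Hes6 line is flattest in the FOXA2+HIF-1a pair.

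The 3 genes that the study followed all rose. Sox9, a transcription factor of progenitor cells, was at 11.50, 11.45, 11.33 and 11.36 in hypoxia and at 9.58, 9.40, 9.63 and 9.42 in normoxia (1.90 ± 0.10, 3.74-fold, limma adjusted p = 1.46e-05). Kdm3a, a demethylase of histone H3 lysine, was at 11.57, 11.58, 11.30 and 11.70 in hypoxia and at 9.59, 9.54, 9.74 and 9.73 in normoxia (1.89 ± 0.11, 3.7-fold, adjusted p = 2.67e-05). In both genes the control hypoxia array lay among or above the other hypoxia arrays. Hes6, a neural helix-loop-helix factor, was at 8.50, 8.20, 8.80 and 7.93 in hypoxia and at 6.86, 6.92, 7.12 and 7.17 in normoxia (1.34 ± 0.16, 2.53-fold, adjusted p = 0.00094), and its other probes gave 0.75 to 0.80. The hypoxia array with both plasmids was the lowest of the 4 for Hes6. On the replicate 2 hypoxia arrays Hes6 was at 8.67, 8.79, 8.99 and 9.15, where the array with both plasmids was the highest, so the order of the transfections was not the same in the replicates.

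The promoters of 6 rising genes are shown because HIF binds the motif ACGTG (on the other strand this reads CACGT) and its variant GCGTG (on the other strand this reads CACGC). Each sequence is the 250 bases before the listed start, written on the strand of the gene, from RefSeq on build GRCm38.p6. Capitals mark each match on either strand, and adjoining or overlapping matches run together. Ankrd37 (chr8:45999851-46000100, minus strand) holds 4 matches, Ppp1r3c (chr19:36736605-36736854, minus strand) 4, and Adm (chr7:110627407-110627656, plus strand) 2. Egln1 (chr8:124949255-124949504, minus strand) holds 2. Kdm3a has 1 match 27 bases before its first listed start (chr6:71632918-71633167, minus strand), which is the window shown. Its other listed starts (chr6:71632687-71632936 and chr6:71609140-71609389) have 0 matches. Hes6 has 1 match 22 bases before its first listed start (chr1:91414039-91414288, minus strand), which is the window shown. A second listed start of Hes6 (chr1:91413223-91413472) has 1 match 69 bases before it.
Ankrd37: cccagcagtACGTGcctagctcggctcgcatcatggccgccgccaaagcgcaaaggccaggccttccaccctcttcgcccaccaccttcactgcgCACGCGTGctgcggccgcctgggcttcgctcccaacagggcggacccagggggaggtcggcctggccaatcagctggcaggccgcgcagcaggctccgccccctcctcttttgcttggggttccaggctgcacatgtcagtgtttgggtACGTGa
Ppp1r3c: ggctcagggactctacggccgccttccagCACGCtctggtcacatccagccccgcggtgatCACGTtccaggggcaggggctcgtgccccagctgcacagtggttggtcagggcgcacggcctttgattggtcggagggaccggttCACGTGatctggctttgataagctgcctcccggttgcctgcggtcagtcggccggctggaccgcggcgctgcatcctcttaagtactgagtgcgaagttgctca
Adm: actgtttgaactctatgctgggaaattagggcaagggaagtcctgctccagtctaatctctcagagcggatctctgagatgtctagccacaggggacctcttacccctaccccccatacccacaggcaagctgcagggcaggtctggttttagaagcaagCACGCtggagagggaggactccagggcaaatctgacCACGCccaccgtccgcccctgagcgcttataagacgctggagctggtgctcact
Egln1: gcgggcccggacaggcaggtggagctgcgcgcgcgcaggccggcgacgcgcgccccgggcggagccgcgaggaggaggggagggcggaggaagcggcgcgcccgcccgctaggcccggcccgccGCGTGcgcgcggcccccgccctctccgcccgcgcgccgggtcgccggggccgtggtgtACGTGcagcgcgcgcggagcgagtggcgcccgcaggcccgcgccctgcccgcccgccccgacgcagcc
Kdm3a: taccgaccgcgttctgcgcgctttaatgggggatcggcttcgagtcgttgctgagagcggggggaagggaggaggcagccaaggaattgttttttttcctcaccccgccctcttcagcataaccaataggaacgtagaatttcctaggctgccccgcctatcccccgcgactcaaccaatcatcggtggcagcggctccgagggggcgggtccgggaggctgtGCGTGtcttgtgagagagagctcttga
Hes6: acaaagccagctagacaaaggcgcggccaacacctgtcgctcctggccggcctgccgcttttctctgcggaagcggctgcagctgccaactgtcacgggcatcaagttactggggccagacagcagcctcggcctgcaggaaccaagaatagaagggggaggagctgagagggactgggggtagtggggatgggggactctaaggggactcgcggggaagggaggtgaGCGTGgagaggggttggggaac

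The motif is short and common, and most of the tested genes' promoters hold it. Of all 32851 listed promoters 38.6% hold a match on either strand, and among promoters of the genes tested 63.0% do. The share was 72.6% of the 190 genes with a listed promoter that were called more than 2-fold higher, 68.5% of all genes called higher, 62.6% of genes not called and 60.1% of genes called lower. For genes with a single listed start the shares were 69.2%, 64.0%, 59.1% and 56.3% in that order. Galr2, Smtnl2 and Zbtb8b, all among the largest rises, hold no match in this window. Cdkn1a, the largest rise, holds 0 matches at its first listed start and 1 at its second. A match is a stretch of letters and not a measured binding site.

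Known HIF targets rose nearly as a whole. Of 37 listed, 35 were measured, 31 were called higher, 1 lower and 3 were not called, against 12.9% called higher and 14.8% called lower over all genes. Their median difference was 1.89, against −0.03 over all genes, and all 4 pairs were higher in 30 of them. Without the HIF-1a pair 30 were called higher, and in the control and FOXA2 pairs alone 30. Higher members included Ndrg1, a growth-regulating stress gene (3.08 ± 0.18), Ak4, a mitochondrial adenylate kinase (2.75 ± 0.10), Hilpda, a lipid droplet protein (2.54 ± 0.10), Car9, the cell-surface carbonic anhydrase (2.37 ± 0.12), and Vegfa, the vessel growth factor (1.61 ± 0.11). The exceptions were Edn1, the vasoconstrictor endothelin, which fell by 0.68 on the log2 scale, and Cited2 (0.07), Stc2 (−0.00) and Mif (−0.08), which were not called. Ero1a, an oxidase of disulfide bond formation, was at 7.69, 7.69, 4.42 and 7.41 in hypoxia and at 4.98, 4.64, 4.71 and 4.63 in normoxia. The HIF-1a hypoxia array was therefore at the normoxia level for this gene, and its call ended without the control pair (1.85, adjusted p = 0.0619) and without the FOXA2+HIF-1a pair (1.82, adjusted p = 0.0694).

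Some genes of the oxygen-sensing machinery rose, and most were not called. Egln1, the main HIF prolyl hydroxylase, was at 8.69, 8.76, 9.40 and 9.53 in hypoxia and at 6.24, 6.14, 5.62 and 6.07 in normoxia (3.08 ± 0.22, adjusted p = 6.9e-05). Both hypoxia arrays with the HIF-1a plasmid were above both without it. Egln3, a second hydroxylase of the family, rose by 3.10 ± 0.13, with 1.39 on its other probe, and Siah2, a ubiquitin ligase that acts on the hydroxylases, rose by 1.06 ± 0.16 (2.08-fold, adjusted p = 0.00299). Of the 13 measured regulators these 3 were called higher and none lower, with a median of 0.07. The share called was 23.1%, against 27.7% of all genes. Vhl, which takes hydroxylated HIF to the proteasome, was at 10.48, 10.55, 6.05 and 10.12 in hypoxia and at 8.37, 8.59, 8.47 and 8.41 in normoxia. It was higher on 3 hypoxia arrays and far lower on the HIF-1a hypoxia array, and was not called over the 4 pairs (0.84 ± 0.68, adjusted p = 0.394). Without the HIF-1a pair the difference was 1.92 (adjusted p = 0.00038). On the replicate 2 hypoxia arrays Vhl was at 10.64, 10.77, 10.78 and 9.78.

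Most measured genes that take up and break down glucose rose. Of 16 measured genes of glucose uptake and glycolysis, 12 were called higher and 1 lower, against 12.9% and 14.8% of all genes. Their median was 0.82, and 10 were called higher without the HIF-1a pair. Slc2a1, the basal glucose transporter GLUT1, was at 13.84, 13.77, 13.53 and 13.66 in hypoxia and at 11.37, 11.24, 11.38 and 11.54 in normoxia (2.32 ± 0.11, 4.98-fold). The phosphofructokinase gene Pfkp rose by 2.81 ± 0.13, its relative Pfkl by 2.13 ± 0.11 (0.80 on its other probe) and the aldolase gene Aldoc by 2.61 ± 0.11. Pgk1, phosphoglycerate kinase, rose by 0.97 ± 0.11. Hk1, hexokinase 1, was at 8.68, 8.36, 8.01 and 10.84 in hypoxia and at 6.56, 5.96, 6.34 and 6.26 in normoxia (2.69 ± 0.41). The array with both plasmids was the highest for Hk1 by more than 2 log2 units, and without that pair the rise was 2.06 (adjusted p = 0.000428). Slc2a3, the high-affinity transporter GLUT3, was lower (−0.54 ± 0.12, adjusted p = 0.0151), a call that ended without the FOXA2 pair (−0.52, adjusted p = 0.0549). Pgam1 rose by 1.10 ± 0.11, but its other probe gave −0.50.

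Pyruvate was handled by genes that moved in both directions. Pdk1, the kinase that shuts pyruvate out of the mitochondrion's dehydrogenase, rose by 2.48 ± 0.11 (5.59-fold), and its relative Pdk3 by 0.83 ± 0.10, while Pdk4 fell by 0.93 on the log2 scale. Ldha, lactate dehydrogenase, rose by 0.70 ± 0.11. Slc16a3, the lactate exporter MCT4, was at 5.94, 5.95, 6.50 and 8.65 in hypoxia and not above background at 4.56, 4.79, 4.47 and 4.84 in normoxia, at least 2.87-fold higher (adjusted p = 0.00609). The array with both plasmids was again the highest, and another detected probe of Slc16a3 gave −0.00. Of the 12 measured genes of this group 4 were called higher (those named) and 3 lower (Pdk4, Dlat and Pdp1). The share called was 58.3%, against 27.7% of all genes.

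Several glycogen genes rose. Of 15 measured genes of glycogen metabolism, 8 were called higher and none lower (median 0.50), and 8 were higher without the HIF-1a pair. Over all genes 12.9% were called higher and 14.8% lower. Ppp1r3b, which brings protein phosphatase to glycogen, was at 10.36, 10.18, 10.30 and 10.36 in hypoxia and at 6.97, 6.61, 7.04 and 6.86 in normoxia (3.44 ± 0.10, 10.8-fold), with 2.67 on its other probe. Ppp1r3c, a second such targeting subunit, was at 9.46, 9.26, 9.18 and 9.20 in hypoxia and at 5.99, 5.99, 6.19 and 6.04 in normoxia (3.22 ± 0.11, 9.32-fold). The 4 hypoxia arrays lay within a narrow band in both genes. Pgm1, phosphoglucomutase, rose by 1.74 ± 0.11 and Gbe1, the branching enzyme, by 1.71 ± 0.12. Pygl, the phosphorylase that releases glucose from glycogen, was called higher on a probe near background (1.09 ± 0.10), its other probe gave 0.02, and with the 8 arrays normalized alone it was not called (0.02, adjusted p = 0.922). The 4 genes of phosphorylase kinase (Phka1, Phka2, Phkb and Phkg2) were not called.

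Enzymes that modify collagen rose while collagens did not as a group. Of 10 measured collagen hydroxylases and lysyl oxidases 6 were called higher and none lower (median 1.01). The share called was 60% of this list and 9.52% of collagens, laminins and fibronectin, against 27.7% of all genes. P4ha2 (2.30 ± 0.12) and P4ha1 (1.67 ± 0.13), the catalytic subunits of collagen prolyl hydroxylase, rose, as did their partner P4hb (0.57 ± 0.12). Plod2, a lysyl hydroxylase, was at 10.10, 9.87, 10.15 and 12.05 in hypoxia and at 7.79, 7.53, 7.50 and 7.41 in normoxia (2.99 ± 0.36). Lox, the collagen cross-linking oxidase, rose by 1.50 ± 0.11. Of 21 measured collagens, laminins and fibronectin 1 was called higher (Col7a1, ended without the FOXA2 pair at 0.56 and without the HIF-1a pair at 0.39) and 1 lower (Col5a2, ended without the FOXA2 pair at −0.42, the HIF-1a pair at −0.36 and the FOXA2+HIF-1a pair at −0.40), with a median of −0.01. Among 25 measured angiogenic and secreted factors, 12 were called higher and 2 lower (Edn1, given above, and Tgfb2 at −0.53), and Igfbp3, a binding protein of insulin-like growth factors, rose by 1.91 ± 0.10. The share called among these factors was 56%, against 27.7% of all genes.

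Genes of the G1 phase moved in both directions, and most genes of replication and mitosis were not called. Ccng2, an atypical cyclin of arrested cells, was at 11.05, 10.89, 10.65 and 10.82 in hypoxia and at 7.86 to 8.08 in normoxia (2.85 ± 0.12, 7.2-fold). Ccnd1, cyclin D1, fell by 0.54 on the log2 scale (adjusted p = 0.00601), and its partner kinase gene Cdk6 by 0.60 (adjusted p = 0.00996). In the list of CDK inhibitors and G1 cyclins 8 of 15 measured genes were called higher and 2 lower, against 12.9% and 14.8% of all genes. The higher ones include the inhibitor gene Cdkn2d (0.51 ± 0.10) and genes that drive G1, the cyclin Ccnd3 (0.67 ± 0.10) and the kinase Cdk4 (0.55 ± 0.11). Of 42 measured replication and G1/S genes 3 were called higher (Ccne2 by 0.95 ± 0.12, E2f1 and Pcna) and 4 lower (Orc2 by −0.74 ± 0.13, Pold2, Pole and Gins1), and 35 were not called. The calls of Pcna (0.44 without the control and 0.32 without the FOXA2 pair), Pold2 (−0.40 without the control pair), Pole (−0.49 without the control pair) and Gins1 (−0.40 without the control, −0.44 without the FOXA2 and −0.29 without the FOXA2+HIF-1a pair) ended when those pairs were left out. The share called was 16.7% of the replication list, 15.4% of the mitosis list and 7.84% of the histone list, against 27.7% of all genes. Of 26 mitosis and spindle genes none was called higher and 4 were called lower, led by Cdc20, an activator of the anaphase-promoting complex (−0.67 ± 0.10). Of 51 replication-dependent histone genes, which share near-identical sequences, 4 were called lower, led by H1f2 (−1.02 ± 0.09). On the replicate 2 hypoxia arrays H1f2 was lower still, down to 9.29 and below every hypoxia array of replicate 1 (10.65 to 10.83), against 11.71 to 11.82 in normoxia. The median of the histone list was −0.12 on the replicate 1 hypoxia arrays and −0.71 on those of replicate 2, set against the same normoxia arrays.

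Of 10 measured genes of the MYC and MAX network 4 were called higher and none lower, against 12.9% and 14.8% of all genes. In the control and FOXA2 pairs alone 3 were called higher and 2 lower. Mxi1, a MAX partner that opposes MYC, was at 10.30, 10.39, 8.26 and 9.93 in hypoxia and at 7.52, 7.85, 8.01 and 7.93 in normoxia (1.89 ± 0.36, adjusted p = 0.00739). The HIF-1a hypoxia array was close to normoxia, and without that pair the rise was 2.44. Mxd1, a repressor of the same family, was at least 2.17-fold higher (adjusted p = 0.000187), and Mxd4 rose by 0.82 ± 0.12. Mnt, a further repressor, was called higher by 0.38, a call that ended without any 1 pair (0.43 without control, 0.43 without FOXA2, 0.35 without HIF-1a and 0.33 without FOXA2+HIF-1a), and Mxd3 was not called (−0.20). Myc itself was at 6.92, 6.91, 7.28 and 8.47 in hypoxia and at 7.64, 7.21, 7.39 and 7.24 in normoxia. The control, FOXA2 and HIF-1a hypoxia arrays were below their normoxia arrays while the array with both plasmids was above its own, and Myc was not called (0.03 ± 0.27, adjusted p = 0.953). In the control and FOXA2 pairs alone it was lower (−0.51, adjusted p = 0.0234).

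Genes of the p53 target list, to which Cdkn1a belongs, moved in both directions. Of 22 measured, 4 were called higher, Cdkn1a among them, and 7 lower, against 12.9% and 14.8% of all genes, with a median of −0.08 against −0.03 over all genes. Fas, a death receptor, was at 6.43, 6.51, 6.81 and 6.39 in hypoxia and at 7.69, 7.67, 7.61 and 7.82 in normoxia (−1.16 ± 0.12, adjusted p = 0.00052). On the replicate 2 hypoxia arrays Fas was at 7.49, 7.60, 7.43 and 7.29, between the replicate 1 hypoxia and the normoxia arrays, and with all 12 arrays and no replicate block its call was lost (−0.71, adjusted p = 0.0625). Plk2, a stress-induced kinase, fell by 0.77 on the log2 scale, Aen, a nuclease of apoptosis, by 0.76 and Dram1, an autophagy modulator, by 0.73. The other called members changed by 0.57 or less. Mdm2, the p53 ubiquitin ligase, rose by 0.49 ± 0.10, and its call ended without the FOXA2 pair (0.44, adjusted p = 0.0596). The call of Trp53inp1 (0.41), a p53 cofactor, ended without the control (0.46), FOXA2 (0.29) or HIF-1a pair (0.38). That of Bbc3 (0.32), the death protein PUMA, ended without any 1 pair (0.27 without control, 0.30 without FOXA2, 0.35 without HIF-1a and 0.37 without FOXA2+HIF-1a). Without the HIF-1a pair 2 members of the list were called higher and 8 lower.

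Sterol synthesis genes rose together. Of 17 measured genes of cholesterol synthesis and uptake, 13 were called higher and none lower (median 0.72), 13 without the HIF-1a pair and 11 without the FOXA2+HIF-1a pair. Over all genes 12.9% were called higher and 14.8% lower. Sqle, squalene epoxidase, was at 12.22, 12.10, 12.50 and 12.37 in hypoxia and at 11.20, 11.12, 11.26 and 11.25 in normoxia (1.09 ± 0.10). Lss, the cyclase that follows it, rose by 1.07 ± 0.10, and Insig1, the sterol-sensing retention protein, by 0.99 ± 0.09. Idi1, an isomerase of the same pathway, was at 9.36, 9.58, 5.86 and 8.72 in hypoxia and at 8.62, 8.71, 8.95 and 8.50 in normoxia. Its HIF-1a hypoxia array stood far below the others, and without that pair Idi1 was called higher by 0.61 (adjusted p = 0.0307), against −0.31 over the 4 pairs. Among 23 genes of fatty acid synthesis and lipid storage 9 were called higher and none lower, a share called of 39.1% against 27.7% of all genes. Vldlr, a lipoprotein receptor, was at 12.46, 12.51, 12.49 and 12.55 in hypoxia and at 10.35, 10.32, 10.33 and 10.43 in normoxia (2.14 ± 0.09, 4.41-fold), and Lpin1, a phosphatidate phosphatase, was at least 2.41-fold higher.

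The largest falls were smaller than the largest rises. Ydjc, a deacetylase-like gene, was at 8.21, 8.24, 7.37 and 7.90 in hypoxia and at 9.36, 9.67, 9.80 and 9.38 in normoxia (−1.62 ± 0.19). Its fall was deepest in the HIF-1a pair. Arsj, an arylsulfatase, fell by 1.62 on the log2 scale (adjusted p = 4.62e-05), Rasl11a, a RAS-like GTPase, by 1.61 and Prokr1, a prokineticin receptor, by 1.60. Slc11a2, the iron transporter DMT1, was at 7.76, 7.74, 7.79 and 7.75 in hypoxia and at 9.44, 9.31, 9.38 and 9.30 in normoxia (−1.60 ± 0.09), and its other probes gave −0.42 to −0.13. The probes of Slc11a2 therefore differed in how much they fell. Fpgs, which traps folate in the cell, fell by 1.41 on the log2 scale. Traf1, an adaptor of TNF receptor signalling, was not above background on any hypoxia array (4.87 to 4.98) and was at 6.12 to 6.50 in normoxia, at least 2.15-fold lower in hypoxia (adjusted p = 8.56e-05).

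Many chemokine and cytokine genes fell. Of 23 measured genes for chemokines, cytokines and the NF-kB pathway 11 were called lower and 3 higher, against 14.8% and 12.9% over all genes, and 10 were lower and 3 higher without the HIF-1a pair. Ccl7, a monocyte-attracting chemokine, was at 11.11, 11.21, 11.12 and 11.07 in hypoxia and at 12.58, 12.74, 12.77 and 12.71 in normoxia (−1.57 ± 0.09, limma adjusted p = 2.67e-05). Its neighbour in function Ccl2 was at 9.83, 9.62, 9.78 and 10.22 in hypoxia and at 11.40, 11.33, 11.44 and 11.51 in normoxia (−1.56 ± 0.11, adjusted p = 6.29e-05). Both genes were lower in every pair with no overlap between the arrays. Csf1, the macrophage growth factor, was at 9.66, 9.81, 9.94 and 9.68 in hypoxia and at 10.63, 10.92, 10.85 and 10.84 in normoxia (−1.04 ± 0.10, adjusted p = 0.000296). Il6, the inflammatory cytokine, fell by 1.07 on the log2 scale and Csf2, a granulocyte and macrophage growth factor, by 0.94. Nfkb2, a subunit of the non-canonical NF-kB pathway, fell by 0.51 (adjusted p = 0.00674). The 3 genes called higher were Cxcl12, a chemokine and known HIF target (0.99 ± 0.10), Tnfaip2, a TNF-induced gene (0.77 ± 0.11, and 0.40 with adjusted p = 0.201 over all 12 arrays without the replicate block), and Nfkbiz, a nuclear NF-kB regulator (0.49 ± 0.10).

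The replicate 2 hypoxia arrays divided these falling genes. Their values were set against the same 4 normoxia arrays, all of replicate 1 and 3 of them on the other slide, so a difference between replicates and a difference in the response to oxygen cannot be told apart. Cxcl1, a neutrophil chemokine, was at 10.87, 10.61, 11.13 and 10.88 on the replicate 1 hypoxia arrays, at 12.16, 12.01, 12.06 and 11.87 on those of replicate 2, and at 11.94, 11.81, 12.01 and 12.04 in normoxia. Cxcl10, an interferon-induced chemokine, was at 9.55, 9.40, 9.90 and 9.65 in replicate 1 hypoxia, at 10.88, 10.87, 10.61 and 10.80 in replicate 2 hypoxia and at 10.65, 10.56, 10.72 and 10.77 in normoxia. For both genes the replicate 1 hypoxia arrays lay below every normoxia array, and the replicate 2 hypoxia arrays overlapped the normoxia arrays. Ccl2 was at 10.43, 9.99, 10.33 and 9.83 and Ccl7 at 11.76, 11.46, 11.55 and 11.33 on the replicate 2 hypoxia arrays, below every normoxia array. Csf1 was at 9.30, 9.05, 8.99 and 8.55 there, lower than on the replicate 1 arrays. In a fit of all 12 arrays with a replicate block the replicate 2 arrays add nothing to an oxygen difference, so its estimates equal those of the 8 arrays by construction (−1.08 for Cxcl1 and −1.05 for Cxcl10). Without the block the differences were −0.50 for Cxcl1 (adjusted p = 0.254) and −0.47 for Cxcl10 (adjusted p = 0.297), and both calls were lost. The median of the list was −0.42 on the replicate 1 hypoxia arrays and −0.09 on those of replicate 2.

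**Figure D3:**
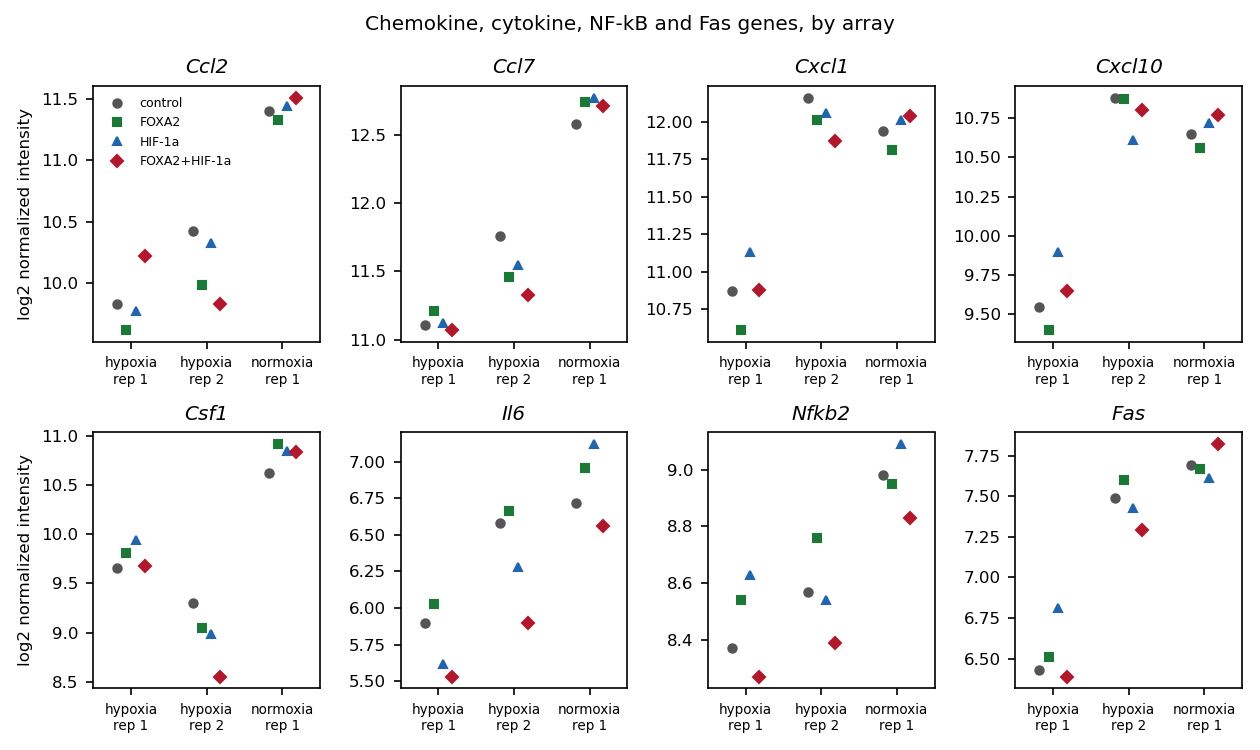
Log2 normalized intensity of 8 genes on the replicate 1 hypoxia arrays, the replicate 2 hypoxia arrays and the replicate 1 normoxia arrays, 4 of each, marked by transfection (vertical scales differ between panels). Ccl2, Ccl7 and Csf1 are below normoxia in both replicates, and Cxcl1 and Cxcl10 are below it in replicate 1 and overlap it in replicate 2.

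Interferon-stimulated genes were called in 27.3% of those measured, near the 27.7% of all genes. Of 33 measured, 8 were called lower and 1 higher, with a median of −0.08. Oasl1, of the antiviral oligoadenylate synthetase family, was at 10.23, 10.37, 9.99 and 10.32 in hypoxia and at 11.28, 11.25, 11.28 and 11.52 in normoxia (−1.10 ± 0.11, adjusted p = 0.000337). On the replicate 2 hypoxia arrays it was at 11.42, 11.07, 11.23 and 10.92, and without the replicate block its call was lost (−0.64, adjusted p = 0.0977). Rsad2, the antiviral protein viperin, fell by 0.93 on the log2 scale in the replicate 1 arrays and was at 11.42, 11.46, 11.65 and 10.99 on the replicate 2 hypoxia arrays, against 11.16, 11.07, 11.38 and 11.44 in normoxia, and without the replicate block its call was lost (−0.41, adjusted p = 0.325). Ifit3 (−0.67 ± 0.10) and Ifit2 (−0.64 ± 0.14), which bind foreign RNA, were called lower. The gene called higher was Eif2ak2, the kinase PKR (0.37 ± 0.10, adjusted p = 0.03), and its call ended without any 1 of the pairs: without control 0.40, without FOXA2 0.42, without HIF-1a 0.30 and without FOXA2+HIF-1a 0.36. Without the FOXA2+HIF-1a pair 5 genes of the list were called lower and none higher.

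Genes that build ribosomes fell as a group, by small and even amounts. Of 67 listed ribosome biogenesis genes 55 were measured, 42 were called lower, none higher and 13 were not called, with a median of −0.52. Over all genes 14.8% were called lower. All 4 pairs were lower in 48 of them, against 25.6% of all genes, and in 43 every hypoxia array lay below every normoxia array, against 18.2% of all genes. The median was −0.48 in the control pair, −0.51 in the FOXA2 pair, −0.43 in the HIF-1a pair and −0.53 in the pair with both plasmids. Without the HIF-1a pair 40 were called lower, without the FOXA2+HIF-1a pair 36, and in the control and FOXA2 pairs alone 43. Polr1b, the second largest subunit of RNA polymerase I, was at 8.79, 8.56, 8.79 and 8.94 in hypoxia and at 9.82, 9.86, 9.71 and 9.67 in normoxia (−0.99 ± 0.12, limma adjusted p = 0.000852). Its partner subunit gene Polr1e fell by 0.83 on the log2 scale. Nop56, a core protein of the box C/D particles that methylate ribosomal RNA, was at 10.59, 10.64, 10.69 and 11.17 in hypoxia and at 11.96, 11.72, 11.60 and 11.79 in normoxia (−0.99 ± 0.13). Nol6, of the small-subunit processome, was at 10.76, 10.80, 10.51 and 10.76 in hypoxia and at 11.62, 11.59, 11.51 and 11.51 in normoxia (−0.85 ± 0.10). No array of either group overlapped the other in these 3 genes. On the replicate 2 hypoxia arrays Polr1b was at 8.46, 8.24, 8.06 and 8.25, and the list's median difference from the same normoxia arrays was −0.84.

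Ddx21, a nucleolar RNA helicase, had the largest called fall of the list and rested in part on 1 array. It was at 11.80, 11.69, 9.35 and 11.46 in hypoxia and at 12.55, 12.58, 12.50 and 12.39 in normoxia (−1.43 ± 0.37, adjusted p = 0.023). The HIF-1a hypoxia array was more than 2 log2 units below the other hypoxia arrays, and without that pair the fall was 0.85 on the log2 scale (adjusted p = 0.00357).

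The finished ribosome and the respiratory chain were mostly not called. Of 52 measured cytosolic ribosomal protein genes 1 was called lower and none higher, with a median of −0.02. It was Rps20 (adjusted p = 0.00249), measured by a probe near background at 4.77 to 5.65 in hypoxia and 6.11 to 6.26 in normoxia. Of 73 mitochondrial ribosomal protein genes 18 were called lower and none higher (median −0.21), and without the FOXA2+HIF-1a pair 10 were. The share called was 24.7%, all lower, against 27.7% of all genes called and 14.8% called lower. Mrps2 fell by 0.71 on the log2 scale and Mrpl17 by 0.59. Of 71 genes of the respiratory chain and ATP synthase 2 were called higher and none lower. Ndufv3, a subunit of complex I, rose by 1.19 ± 0.11 (2.28-fold, adjusted p = 0.000264). Cox7a1, a subunit of cytochrome oxidase, rose by 0.49 ± 0.12, a call that ended without the control pair (0.41, adjusted p = 0.0904) and without the HIF-1a pair (0.43, adjusted p = 0.0551). The share called in the respiratory list, 2.82%, was below the 27.7% of all genes, and that in the cytosolic ribosomal list was 1.92%.

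DNA repair genes were called in 31% of those measured, near the 27.7% of all genes. Of 29 measured, 8 were lower, 1 higher and 20 not called, with a median of −0.13. Mre11a, a nuclease of double-strand breaks, fell by 0.69 on the log2 scale, Ung, which removes uracil from DNA, by 0.65 and Xrcc6, the end-binding protein Ku70, by 0.58. Brca2 fell by 0.51 (adjusted p = 0.00577), and on the replicate 2 hypoxia arrays it was at 7.41, 7.56, 7.38 and 7.02, against 6.79 to 7.07 on the replicate 1 hypoxia arrays and 7.38, 7.46, 7.55 and 7.32 in normoxia. Without the replicate block its call was lost (−0.30, adjusted p = 0.138). The gene called higher was Xrcc1, a scaffold of single-strand break repair (0.46), and its call ended without the FOXA2 pair (0.49, adjusted p = 0.0526) and without the FOXA2+HIF-1a pair (0.45, adjusted p = 0.0524).

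Histone demethylases, clock genes and Notch pathway genes held further rises, given here against 12.9% called higher and 14.8% called lower over all genes. Of 22 measured histone demethylases 9 were called higher and 1 lower, Riox1, whose call ended without the control (−0.46), HIF-1a (−0.39) or FOXA2+HIF-1a pair (−0.35). Beside Kdm3a, Kdm4b was at 10.89, 10.84, 10.98 and 10.86 in hypoxia and at 8.96 to 9.14 in normoxia (1.88 ± 0.10, 3.67-fold), Jmjd6 rose by 1.20 ± 0.10, and Kdm7a and Kdm5b by 0.91 and 0.81. Of 14 measured clock genes 7 were called higher and 2 lower. Ciart, a repressor of the clock, was at 10.33, 10.12, 10.44 and 10.07 in hypoxia and at 8.14, 8.11, 8.34 and 8.30 in normoxia (2.02 ± 0.11), Bhlhe40, a clock repressor and known HIF target, rose by 1.61 ± 0.14, and Per2 and Per1 by 1.05 and 0.79. Nr1d2, a nuclear receptor of the clock, fell by 0.87, and Dbp, a clock output factor, by 0.33. The call of Dbp ended without any 1 pair (−0.40 without control, −0.29 without FOXA2, −0.34 without HIF-1a and −0.30 without FOXA2+HIF-1a). Of 11 measured Notch pathway genes 5 were called higher (Hes6, Hey1, Hey2, Maml1 and Dtx2) and 1 lower. The call of Maml1 ended without the control or the FOXA2 pair (0.51 each), and that of Dtx2 without any 1 pair (0.35 without control, 0.38 without FOXA2, 0.30 without HIF-1a and 0.32 without FOXA2+HIF-1a). Hey1, a Notch-driven repressor, rose by 1.12 ± 0.14, and Jag1, a Notch ligand, fell by 0.70.

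The share called differed between stress response lists, against 27.7% of all genes. It was 44.4% of the immediate early genes, 5.26% of the NRF2 list, 33.3% of the ER list, 28.6% of the autophagy list and 44.4% of the YAP/TAZ list. Of 18 measured immediate early genes 6 were called higher and 2 lower. Ier3 (1.36 ± 0.09), the phosphatase gene Dusp1 (1.17 ± 0.11) and Jun (1.06 ± 0.12) rose, and Egr1, a zinc-finger factor of the same class, was at 11.04, 11.46, 11.18 and 11.46 in hypoxia and at 12.13, 12.49, 12.36 and 12.25 in normoxia (−1.02 ± 0.10). Of 19 NRF2 antioxidant genes Hmox1, haem oxygenase and also a HIF target, was the 1 called (1.77 ± 0.11). Ddit4, which inhibits mTORC1, rose by 2.29 ± 0.10 (4.88-fold). Of 21 genes of ER folding and the unfolded protein response 7 were called higher and none lower, Xbp1 among them (0.63 ± 0.10). Of 21 autophagy and mitophagy genes 6 were called higher and none lower, with the mitophagy receptor Bnip3l at 2.08 ± 0.10. Of 18 YAP/TAZ targets 2 were called higher and 6 lower. Their median was −0.14 on the replicate 1 hypoxia arrays and −0.59 on those of replicate 2, set against the same normoxia arrays.

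**Figure D4:**
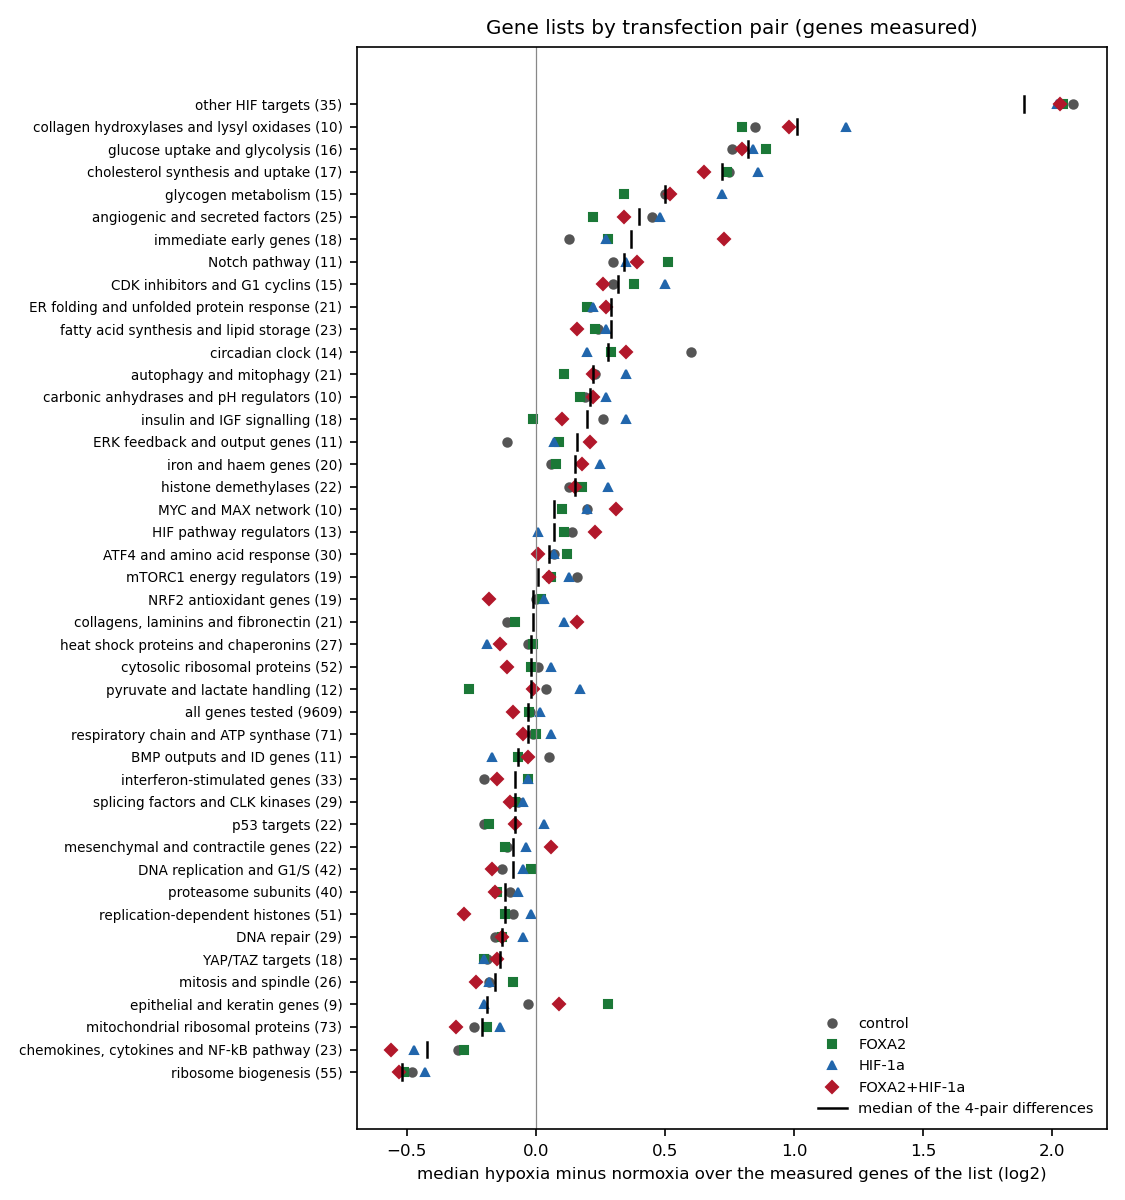
Median difference between hypoxia and normoxia (log2) over the measured genes of each list with 9 or more, by transfection pair (symbols) and over the 4 pairs (black bars), with the number of genes in brackets. HIF targets stand highest at 1.89 and ribosome biogenesis lowest at −0.52, and the 4 pairs lie close together in both.

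The 4 pairs gave responses of different spread. Genes more than 2-fold higher numbered 264 (2.75%) in the control pair, 251 (2.61%) in the FOXA2 pair, 328 (3.41%) in the HIF-1a pair and 412 (4.29%) in the FOXA2+HIF-1a pair. Genes more than 2-fold lower numbered 77 (0.801%) in the control pair, 73 (0.76%) in the FOXA2 pair, 367 (3.82%) in the HIF-1a pair and 148 (1.54%) in the FOXA2+HIF-1a pair. A pair is 1 array against 1, with no test. A rise of more than 2-fold in all 4 pairs was seen in 145 genes (1.51%) and such a fall in 20 (0.208%), against 627 (6.53%) and 503 (5.23%) in at least 1 pair. The differences of the control and FOXA2 pairs correlated at 0.860 across the 9609 genes, and the other combinations at 0.614 to 0.677. These are correlations across genes within single pairs of arrays, where genes are not independent replicates.

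Single hypoxia arrays stood apart from the rest. In 123 genes the HIF-1a pair lay more than 1 log2 unit below all 3 other pairs, and in 5 above them. In 123 genes the FOXA2+HIF-1a pair lay more than 1 above all 3 others, and in 6 below. The control pair had no such gene and the FOXA2 pair 2. Erbin, a scaffold of epithelial junctions, was at 9.83, 9.82, 4.51 and 9.42 in hypoxia and at 9.74, 9.77, 9.69 and 9.68 in normoxia, and on the replicate 2 hypoxia arrays at 9.99, 9.88, 9.77 and 9.80. Jak1, a cytokine receptor kinase, was at 9.85, 10.08, 5.08 and 9.58 in hypoxia and at 9.56, 9.69, 9.64 and 9.58 in normoxia. For both genes the replicate 1 HIF-1a hypoxia array alone fell to near background. Dis3, a nuclease of the exosome, had a difference of −1.93 ± 0.74 over the 4 pairs that was not called (adjusted p = 0.0903) and of −0.74 without the HIF-1a pair (adjusted p = 0.0185).

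Other probes and the replicate 2 arrays were read for the same genes. Of the 123 genes low in the HIF-1a pair, 47 had other detected probes, and 2 of those 74 probes also passed the gap of 1. On the probes by which the 123 genes were picked, the median difference in the HIF-1a pair was −2.10 on the replicate 1 hypoxia array. It was −0.17 on that of replicate 2. Of the 123 genes high in the FOXA2+HIF-1a pair, 18 of 58 other probes in 43 genes passed the gap. On the picked probes the median difference was 1.56 in replicate 1 and 0.38 in replicate 2. Both sets were picked by their replicate 1 values, so a smaller difference in replicate 2 would arise in part from the picking. Itga5, the fibronectin receptor subunit, was at 7.05, 6.85, 6.99 and 10.53 in hypoxia and at 7.16, 6.73, 6.77 and 6.85 in normoxia, and the array with both plasmids was at 8.03 in replicate 2. Mpp2, a membrane scaffold, was at 7.06, 6.94, 7.21 and 10.04 in hypoxia and at 5.31, 5.33, 5.38 and 4.84 in normoxia (2.60 ± 0.54, adjusted p = 0.0106; 1.73 without the FOXA2+HIF-1a pair), and on the replicate 2 hypoxia arrays at 7.42, 7.67, 7.62 and 7.83. The array with both plasmids is also the one with the highest raw intensity and, like its normoxia partner, lay on slide 2. The part of intensity and slide in these differences was not tested. Of the 257 genes that stood apart in the HIF-1a or the FOXA2+HIF-1a pair, 25 were called over the 4 pairs. Over all genes 27.7% were called. The 257 were picked for a wide spread among the pairs, which by itself makes a call less likely.

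**Figure D5:**
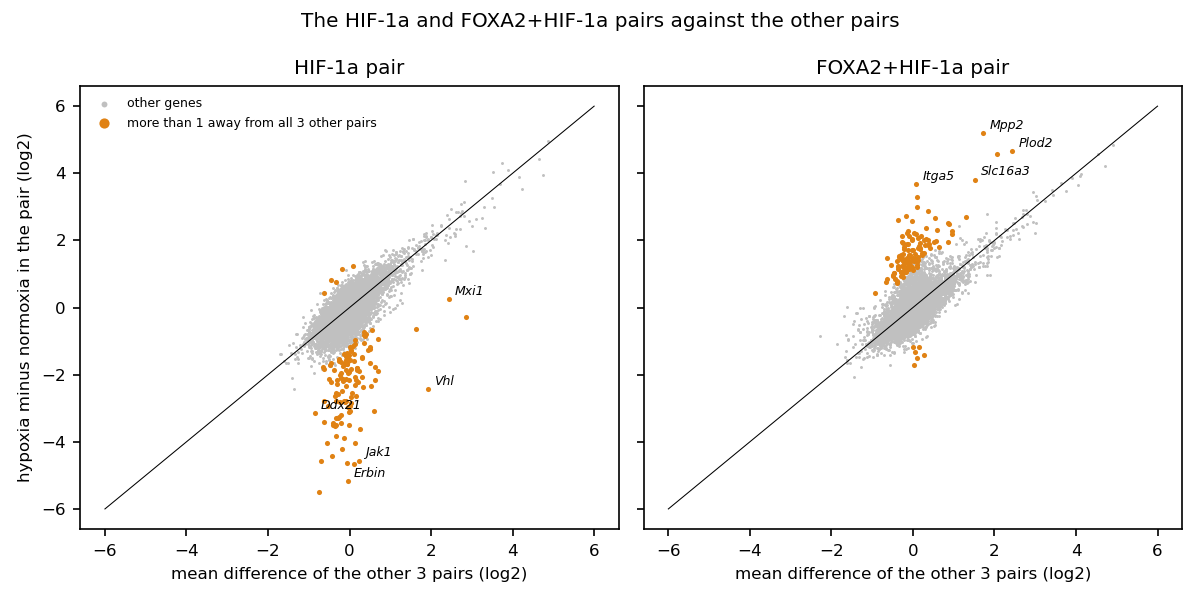
Difference between hypoxia and normoxia (log2) in the HIF-1a pair (left) and the FOXA2+HIF-1a pair (right) against the mean of the other 3 pairs, for 9609 genes, with genes more than 1 away from all 3 other pairs in orange and the diagonal as a line. Orange genes lie mostly below the diagonal in the HIF-1a pair (123 below, 5 above) and mostly above it in the FOXA2+HIF-1a pair (123 above, 6 below).

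Leaving such pairs out kept most of the calls. Without the HIF-1a pair 1016 genes were called higher and 1298 lower, and 2089 of the calls were shared with the 2663 of the 4 pairs. Without the FOXA2+HIF-1a pair, which leaves slide 1 alone, 1095 were higher and 1017 lower, with 1937 shared. In the control and FOXA2 pairs alone 1481 were higher and 1631 lower, with 2253 shared and 859 that the 4 pairs did not call. No gene was called in the opposite direction in any of these fits.

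Whether the plasmids changed the response to hypoxia was tested as an interaction over the 8 arrays, with 1 residual degree of freedom, where limma's estimate gave every gene the same variance. The response with the FOXA2 plasmid differed from that without it in 73 genes (0.76%; 3.62% at unadjusted p below 0.05), and the response with the HIF-1a plasmid from that without it in 189 (1.97%; 9.21% unadjusted). All 73 genes of the first test and 145 of the 189 of the second stood apart in a single pair as described above. In simulated data the HIF-1a test called 26 genes that had been left unchanged. It called 0% of 80 genes changed by 0.5, 38.8% of 80 changed by 1 and 100% of 40 changed by 2 (log2). The adjusted p therefore understated the share of false calls there. The FOXA2 test was not simulated. When all 12 arrays were fitted with the replicate number as a block no gene was called in either test by limma (92 and 383 genes at unadjusted p below 0.05), and a fit with each interaction alone also called none (106 and 966 genes). With a pair left out as well, that fit called 38 genes for FOXA2 without the control pair and 32 without the FOXA2 pair, and 335 for HIF-1a without the HIF-1a pair and 363 without the FOXA2+HIF-1a pair. It called 0 in the other 4 cases (limma, 87 to 360 genes at unadjusted p below 0.05). Egln1 was among the genes called for the HIF-1a plasmid, with a rise that was larger by 1.08 with the plasmid than without (adjusted p = 0.0152).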

How the data were processed

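RNA of transfected TRAMP-C cells was measured on Illumina Mouse-6 BeadChips, 500 ng per array. The authors deposited a table of raw probe intensity values with a detection p-value per probe and array, and a table of processed intensity values. How the processed table was normalized, the sources used here do not give. No columns of samples outside the series were present (0 unused).

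From the raw intensities, background correction by detection p-values, an offset of 16 and quantile normalization (neqc of limma 3.58.1 in R 4.3.3) were applied to all 12 arrays. Each gene was represented by its brightest detected probe. The 8 replicate 1 arrays were fitted by limma with oxygen and transfection as terms. An exact sign-flip test over 4 pairs cannot go below 0.125 (two-sided), so single-value tests were not used. The steps were tested on simulated data, in which the interaction test made more false calls than its threshold allows (given above).

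The arrays, lists and many named genes were chosen with earlier results of these data known. Genes were named by size of change among called genes, as members of the lists, and in part after their values were seen. Alternatives covered normalization, offset, detection filter, probe choice, blocks and each pair left out. Same-numbered arrays of hypoxia and normoxia share a replicate number and a transfection.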

Additional observations from a re-analysis of the deposited data

Results flagged for a closer look

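For 178 genes named here, the difference in 1 pair was set against the other 3 pairs by Dixon's critical value. It was passed by 21 genes. Chance passes about 1 in 20, but several of these genes were named because 1 pair stood apart, so their number cannot be set against chance. In the HIF-1a pair the differences apart from the others were −5.49 for Dis3, −5.18 for Erbin, −4.56 for Jak1, −3.15 for Ddx21, −3.09 for Idi1, −2.43 for Vhl and −0.28 for Ero1a. Smaller ones in the same pair were 1.56 for Kdm3a, 1.11 for Bhlhe40, −0.82 for Cxcl10 and −0.32 for Xrcc6, each a smaller change than in the other pairs. In the FOXA2+HIF-1a pair they were 5.20 for Mpp2, 4.65 for Plod2, 3.68 for Itga5, 2.60 for Cnot3, 1.14 for Kdm5b, 1.06 for Pdk3, a smaller rise of 0.35 for Cdkn2d, and −2.06 for Rasl11a, −0.35 for Mif and −0.21 for Aen.

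The response to hypoxia with the FOXA2 plasmid minus that without it differed, by limma's interaction test, by 2.66 for Dis3, 2.44 for Erbin, 2.33 for Jak1, 1.99 for Vhl, 1.85 for Itga5, 1.72 for Idi1, 1.71 for Ero1a, 1.61 for Mpp2, 1.60 for Hk1, 1.23 for Cnot3 and 1.04 for Ddx21. With the HIF-1a plasmid minus without it, the differences were −2.79 for Erbin, −2.62 for Jak1, −2.48 for Dis3, −2.39 for Vhl, −2.24 for Idi1, −1.62 for Ero1a, −1.53 for Mxi1 and −1.23 for Ddx21. They were 1.94 for Itga5, 1.84 for Mpp2, 1.65 for Slc16a3, 1.62 for Cnot3, 1.33 for Plod2, 1.08 for Egln1 and 1.07 for Myc. All these genes but Egln1 stood apart in a single pair. For Dis3, Erbin, Jak1, Vhl, Idi1, Ero1a, Mxi1 and Ddx21 it was the HIF-1a pair, and for the others the FOXA2+HIF-1a pair. That pair enters both tests, so for these genes a plasmid and a single array cannot be told apart. None of the differences was called when all 12 arrays were fitted with the replicate block, where limma gave 92 and 383 genes at unadjusted p below 0.05.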

How the results depend on the processing

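Of 18 alternative settings, slide 1 alone is the same fit as that without the FOXA2+HIF-1a pair. The fits that left out 1 pair gave 773 to 1095 genes higher and 773 to 1298 lower. In the other settings the count of genes called higher was 1225 to 1481 and of genes called lower 1418 to 1631. With all 12 arrays, 1338 genes were higher and 1550 lower with the replicate block, whose differences equal those of the 8 arrays by construction, and 1386 and 1532 without it. Of 276 named or listed genes called over the 4 pairs, 179 were called in every setting. Among genes called in at least 1 of the fits compared, directions turned for Idi1 (−0.71 to 0.61 with 1 pair left out, 0.61 being without the HIF-1a pair, and 0.80 with the control and FOXA2 pairs alone), for Jak1 (0.34), Cnot3 (−0.45) and Myc (−0.51) with the control and FOXA2 pairs alone, and for Dusp5 (−0.14), Cdh1 (0.31) and Dbp (0.13) with 12 arrays and no replicate block. The cause was not tested. The FOXA2 interaction (73 genes) gave 33 with no detection filter and 0 with the mean of a gene's probes, and the HIF-1a interaction (189) gave 288 with detection on the 8 arrays, 284 with an intensity trend and 21 with the mean of probes. Both gave 0 by limma with all 12 arrays and the replicate block, and 0 in a fit with that interaction alone. At unadjusted p below 0.05 these 0 counts were 436 (mean of probes), 92 and 383 (replicate block) and 106 and 966 (single interaction). With a pair left out, only each interaction alone could be fitted, with 1 residual degree of freedom, and gave 0 to 38 genes for FOXA2 and 0 to 363 for HIF-1a. With 4 pairs and 1 array per condition, small changes and genes near background were poorly resolved.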
